A study of Mus musculus with 72 samples.

Results

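Chromatin-associated RNA of wild-type (WT) iXist-ChrX-Cast cells was compared between an earlier stage, days 2 and 3, and a later stage, days 5 and 7, of combined Xist induction and neural precursor cell (NPC) differentiation. The 11 libraries were chosen by their titles, which name the line and the day and no knockout clone, and were taken as WT. They are 2 replicates of day 2 and 3 replicates each of days 3, 5 and 7, out of 72 libraries in the whole series. Xist is the non-coding RNA that coats the X chromosome from which it is transcribed and silences the genes of that chromosome in cis, so that XX cells equalise their X-linked dose with XY cells. In the neural protocol used here, embryonic stem cells leave naive pluripotency, pass through a formative, epiblast-like state and then switch on neuroepithelial regulators when serum and LIF are withdrawn in N2B27 medium. Both processes therefore run on the same days in the same cells, and an effect of Xist and an effect of differentiation on any gene cannot be told apart in these 11 libraries.

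The series followed silencing of the X in WT and SmcHD1 knockout (KO) mouse XX embryonic stem cells (mESCs) during NPC differentiation. iXist-ChrX-Cast is a single female clone (label C7H8) of a hybrid between a 129S strain (Mus musculus domesticus, Dom) and Mus musculus castaneus (Cast). In all 11 libraries a TetOn promoter replaces the native promoter of Xist on the Cast X, doxycycline at 1 μg/mL was present throughout, and the cells had been separated from feeder fibroblasts by repeated pre-plating before they were grown in N2B27. The inactive X (Xi) is thus always the Cast X and the active X (Xa) the Dom X, and random choice plays no part in the model. An uninduced library of WT iXist-ChrX-Cast was not analysed here. Where an uninduced level is given, it is that of 3 libraries of the SmcHD1 KO clones D5 and G6 of the same line, grown as mESCs, which differ from the 11 libraries in genotype as well as in induction. The WT libraries of the reciprocal line iXist-ChrX-Dom, in which Xist is induced from the Dom X, gave 8 libraries of the same days (2 per day) for comparison.

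Depth ranged from 20742617 to 31107643 counted fragments per library, 9927518 to 14555855 of them assigned to an allele, and 17636 to 18365 of 22556 genes had at least 1 fragment. Replicates of a day differed beyond sampling noise in each of 10 pairs (chi-square per gene 26.99 to 93.1), so no library was a copy of another. The Cast allele took 63.7% to 66.0% of allelic fragments on chromosome 5 and 65.5% to 67.0% on chromosome 12 in all 11 libraries, against 45.6% to 50.6% on the other autosomes. Levels are given as RPM, the reads (here fragments) of a gene per 1e6 counted fragments of the library, which are not divided by gene length and so were compared between libraries only. Fragments were counted once per gene, and 391 of 397 genes that lie inside another gene of the same strand were at 0 in all 11 libraries. Sox2 (inside Sox2ot) and Sox1 (inside Gm5607), both defining neuroepithelial regulators, were among them and could not be read. In bulk libraries, fewer cells of a type and less RNA per cell cannot be told apart.

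To ask how far the cells had moved from the stem cell state, total counts of days 5 and 7 were compared with those of days 2 and 3 (edgeR's quasi-likelihood test, Benjamini-Hochberg adjusted p below 0.05 as the threshold). Of 15390 genes tested, 3657 rose (23.8%) and 3712 fell (24.1%), and the stages did not overlap in RPM for 1423 genes that were higher (9.25%) and 2487 that were lower (16.2%) at days 5 and 7. Scaled to library totals instead of by TMM, 2906 rose and 4766 fell, so that the share of rises among the genes past the threshold was 37.9% instead of 49.6%, with a shift of the median log2 fold change of all genes to -0.12. The libraries lined up by day on the leading principal component of the 500 most variable autosomal genes, which held 78.7% of their variance. Library scores were -31.9 and -30.1 at day 2, -22.5, -17.5 and -19.7 at day 3, 12.8, 16.6 and 8.41 at day 5 and 30.1, 27.996 and 25.8 at day 7. The days did not overlap on it, and the widest gap lay between days 3 and 5.

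Most core pluripotency genes fell. Of 13 tested core pluripotency genes, 11 fell (84.6%) and 1 rose (7.69%), against 24.1% and 23.8% over all genes tested. None rose without day 2 replicate 1. Their median log2 fold change was -1.23, against 0.00 over all genes tested. Pou5f1, which encodes the central pluripotency factor Oct4, stood at 61.3 and 82.5 RPM at day 2, 50.2, 53.1 and 67 at day 3, 31.1, 26 and 36.3 at day 5 and 16.8, 17.4 and 25.4 at day 7. Its highest later library lay below its lowest earlier library (log2 fold change -1.23, SE 0.15, edgeR adjusted p = 7.57e-05). Dppa4, a chromatin factor of pluripotent cells, fell from 40.6 to 81.2 RPM at days 2 and 3 to a range of 5.06 to 15.2 RPM at days 5 and 7 (log2 fold change -2.45, SE 0.12, edgeR adjusted p = 8.32e-07). Its partner Dppa2 (log2 fold change -2.59, SE 0.23, edgeR adjusted p = 1.39e-05) and the TGF-beta ligand Gdf3 (log2 fold change -1.92, SE 0.21, edgeR adjusted p = 4.03e-05) fell too. Lin28a, which blocks maturation of let-7 miRNAs, was the member with the most fragments that did not pass (log2 fold change -0.28, SE 0.16, edgeR adjusted p = 0.172), although its libraries did not overlap in RPM (122 to 134 RPM at days 2 and 3 and 53.7 to 113 RPM at days 5 and 7).

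Of 19 formative and primed genes, 12 fell (63.2%) and 1, Tead2, rose (5.26%; median -0.75), against 24.1% and 23.8% over all genes tested. Without day 2 replicate 2, 8 fell. The Tead2 call was lost with the replicate number as a block in a fit without day 2 (the replicate block without day 2) and without replicate 2 of day 2, replicate 1 or 2 of day 3, replicate 1 or 3 of day 5 or replicate 2 or 3 of day 7. Dnmt3b, the de novo DNA methyltransferase that marks the formative epiblast, stood at 812 and 974 RPM at day 2, 600.2, 437 and 685 at day 3, 148, 127 and 199.99 at day 5 and 87.4, 106 and 118 at day 7. Its highest later library lay below its lowest earlier library, and it fell by 2.35 on the log2 scale (SE 0.15, edgeR adjusted p = 1.85e-06). Fgf15 (log2 fold change -3.27, SE 0.45, edgeR adjusted p = 0.000192) and the forkhead factor Foxd3 (log2 fold change -2.98, SE 0.38, edgeR adjusted p = 0.000117) fell further, whereas the epiblast ligand Fgf5 did not pass the threshold (log2 fold change -0.07, adjusted p = 0.845). Of the 20 naive genes 6 fell (30%) and 4 rose (20%; median -0.24), shares near the 24.1% and 23.8% over all genes tested. Fgf4, the FGF ligand of stem cells (log2 fold change -2.18, SE 0.23, edgeR adjusted p = 3.49e-05), Spp1 (log2 fold change -1.59, SE 0.22, edgeR adjusted p = 0.000191) and Zfp42 (log2 fold change -1.48, SE 0.14, edgeR adjusted p = 2.14e-05) fell. Zfp42, also called Rex1 and a classical marker of naive cells, stood at 141 and 112 RPM at day 2, 66.5, 79.3 and 55.3 at day 3, 38.5, 35.1 and 43.3 at day 5 and 19.1, 26.1 and 26.4 at day 7. Nanog moved the other way, with 9.96 and 11.5 RPM at day 2, 9.67, 15.9 and 10.1 at day 3, 21.9, 24 and 14.1 at day 5 and 13.4, 19 and 16.1 at day 7 (log2 fold change 0.79, SE 0.19, edgeR adjusted p = 0.00531), and the 2 stages overlapped. Klf5, Tfcp2l1 and Socs3 were the other naive genes that rose, Klf5 not when scaled to library totals and Tfcp2l1 not without day 2 replicate 2. Pou5f1, Tead2, Fgf5 and Nanog are outside the rule for named genes and were picked after their values were seen.

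Because Zfp42 is a textbook target of Oct4, its promoter is shown with the octamer motif (ATGCAAAT, searched on both strands) in capitals. The window runs from 250 bases before to 50 bases after the gene start and lies at chr8:43306960-43307259 on the minus strand (RefSeq, GRCm38.p6). The octamer lies 186 bases before the start and is found in 1.75% of 27025 such windows, and the windows of Fgf4 and Nanog hold none. The match is a description of the letters and not evidence of binding.
Zfp42: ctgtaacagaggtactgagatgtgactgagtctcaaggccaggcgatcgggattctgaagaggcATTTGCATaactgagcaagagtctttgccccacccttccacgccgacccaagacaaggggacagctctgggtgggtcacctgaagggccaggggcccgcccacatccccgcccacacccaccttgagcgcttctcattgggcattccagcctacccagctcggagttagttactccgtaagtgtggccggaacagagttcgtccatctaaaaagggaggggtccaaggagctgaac

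Neural precursor genes rose in number, while several defining regulators stayed low or fell. Of 21 tested members, 13 rose (61.9%) and 1 fell (4.76%; median log2 fold change 0.88), against 23.8% and 24.1% over all genes tested. Hes1, the Notch effector that keeps neural progenitors undifferentiated, stood at 1.6 and 3.8 RPM at day 2, 4.25, 5.76 and 5.68 at day 3, 18.1, 20.9 and 11.6 at day 5 and 18, 18.5 and 26.2 at day 7. Every later library exceeded every earlier one (log2 fold change 2.44, SE 0.24, edgeR adjusted p = 2.21e-05). Zfp521, a zinc-finger factor that promotes the neural fate, rose, with 42.2 and 39.9 RPM at day 2, 77, 103 and 75.8 at day 3, 130.2, 159 and 123 at day 5 and 151, 261 and 227 at day 7 (log2 fold change 1.65, SE 0.16, edgeR adjusted p = 2.05e-05), with the day 3 libraries already above those of day 2. Pax3, a dorsal neural tube and neural crest regulator, was at 1.13 and 0.557 RPM at day 2, 0.879, 1.02 and 0.552 at day 3, 0.749, 0.901 and 1.41 at day 5 and 5.54, 10.6 and 9.26 at day 7. At day 5 it overlapped the earlier libraries, and it was higher in all 3 day 7 libraries (log2 fold change 1.96, SE 0.32, edgeR adjusted p = 0.000492). Nr2f2 passed as well (log2 fold change 3.13, SE 0.71, edgeR adjusted p = 0.00405), with values from 0.485 to 14.7 RPM among the later libraries that overlapped the earlier ones.

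The intermediate filament genes of neuroepithelium differed between replicates. Vim was at 16.9 and 16.8 RPM at day 2, 14.6, 13.7 and 17.6 at day 3, 35.6, 17.4 and 51.7 at day 5 and 35.5, 43.3 and 79 at day 7 (log2 fold change 1.54, SE 0.29, edgeR adjusted p = 0.00118). Nes stood at 18.8 and 16.7 RPM at day 2, 45.1, 54.3 and 58.3 at day 3, 89.2, 32.5 and 124 at day 5 and 32.1, 25 and 94.4 at day 7. Nes passed (log2 fold change 1.20, SE 0.39, edgeR adjusted p = 0.0248), but the stages overlapped and 2 of 3 day 7 libraries lay below all 3 day 3 libraries. The Nes call was lost when any of 5 libraries was left out (replicate 1 or 2 of day 2, replicate 1 of day 3 or replicate 3 of day 5 or 7; adjusted p up to 0.087), and those of Nes and Prom1 also in the fit of 2 stages without the day factor and with the replicate block without day 2. Sox6, Sox9, Sox21, Notch1, Notch2, Prom1 and Ncam1 rose too. The calls of Sox21, Ncam1 and Notch1 were each lost without 6 or 7 of the 11 libraries in turn, that of Sox9 without day 2 replicate 1 (edgeR adjusted p = 0.0717) and that of Prom1 without day 2 replicate 2 (adjusted p = 0.0531). Pax6, the paired-box regulator of neuroectoderm, fell, with 2.12 and 1.05 RPM at day 2, 1.62, 0.79 and 0.868 at day 3, 0.264, 0.406 and 0.418 at day 5 and 0.675, 0.302 and 0.386 at day 7 (log2 fold change -1.57, SE 0.35, edgeR adjusted p = 0.00338). Msi2, an RNA-binding protein of progenitors, was the member with the most fragments that did not pass (log2 fold change -0.20, SE 0.20, edgeR adjusted p = 0.434). Other regulators and markers of neural precursors were barely detected. Hes5 did not exceed 0.139 RPM in any library, Fabp7 0.434, Zic1 0.185 and Neurog2 0.0789, and none of these 4 was tested. Zfp521, Vim, Nes, Pax6 and the genes of these last sentences other than Msi2 were also picked after their values were seen.

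Neuronal genes fell more often than they rose. Of 24 tested proneural and neuronal members, 11 fell (45.8%) and 3 rose (12.5%; median -0.81), against 24.1% and 23.8% over all genes tested. Myt1l, a zinc-finger factor that maintains neuronal identity, stood at 21 and 16.1 RPM at day 2, 24.5, 19 and 28.5 at day 3, 2.29, 1.44 and 4.18 at day 5 and 0.482, 0.792 and 1.51 at day 7. Its later libraries all lay below its earlier ones (log2 fold change -3.60, SE 0.31, edgeR adjusted p = 1.1e-05), and the level at days 2 and 3 was thus the higher. Elavl3, a neuronal RNA-binding protein (log2 fold change -2.73, SE 0.24, edgeR adjusted p = 1.29e-05), the nuclear neuronal marker Rbfox3 (log2 fold change -2.31), the bHLH factor Neurod1 (-2.25) and Tubb3, the neuron-enriched tubulin (-1.06), fell as well. The axon guidance receptor Robo2 rose, from 12.5 to 28.6 RPM at days 2 and 3 to a range of 32.9 to 426 RPM at days 5 and 7 (log2 fold change 2.92, SE 0.45, edgeR adjusted p = 0.000356), as did the adhesion gene Nrcam, whose call was lost in the fit of 2 stages without the day factor and with the replicate block without day 2. Of 34 regional transcription factors only 13 passed the filter on low counts. Of these 13, 4 rose (30.8%) and 2 fell (15.4%; median 0.40), against 23.8% and 24.1% over all genes tested. Irx3 (log2 fold change 2.66, SE 0.56, edgeR adjusted p = 0.00249) and Dmbx1 (log2 fold change 2.04, SE 0.56, edgeR adjusted p = 0.0113) rose, Dmbx1 not without day 2 replicate 2 (adjusted p = 0.0548). Lmx1b, with the most fragments in the list, did not pass (log2 fold change 0.13, SE 0.41, edgeR adjusted p = 0.81). Among 8 tested glial genes 1 (12.5%), the glutamate transporter Slc1a2, rose (log2 fold change 1.03, SE 0.26, edgeR adjusted p = 0.00788) and none fell, against 23.8% and 24.1% over all genes tested. Gja1, the member with the most fragments, did not pass the threshold (log2 fold change -0.17, SE 0.18, edgeR adjusted p = 0.467). A further glial gene rose without day 3 replicate 3, day 5 replicate 1 or day 7 replicate 1.

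**Figure D1:**
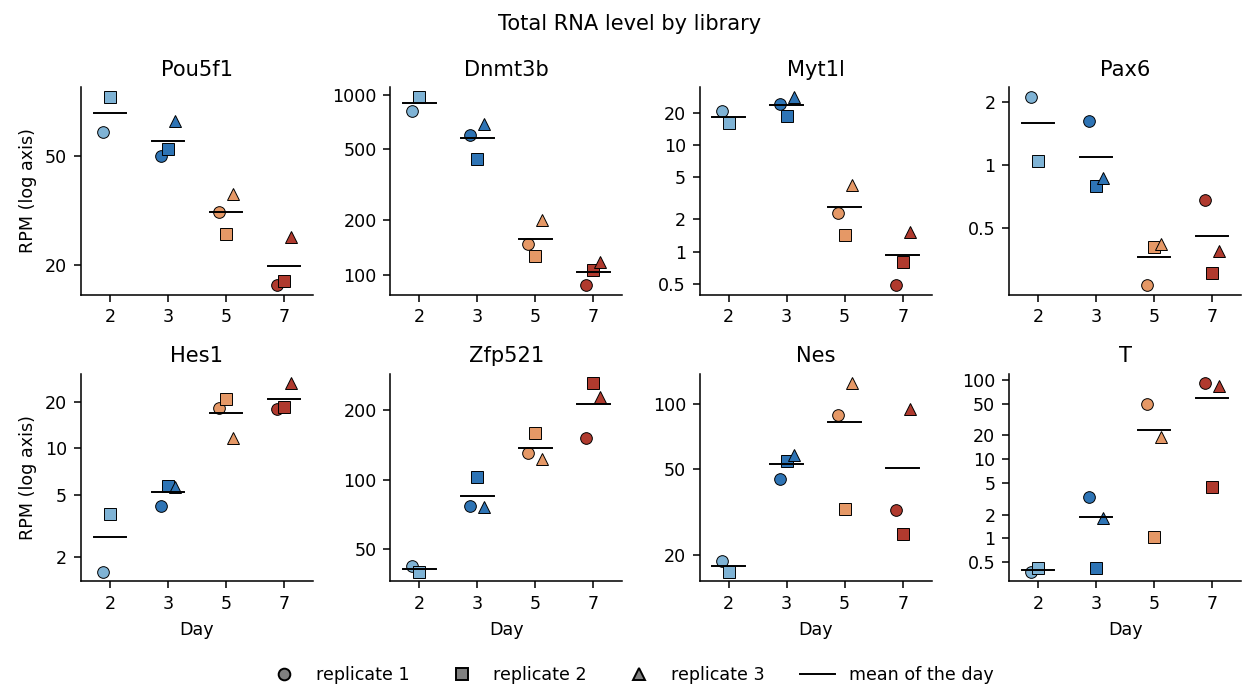
Levels of 8 marker genes in each library (vertical axis, RPM on a log axis) by day (horizontal axis), with circles, squares and triangles for replicates 1, 2 and 3. Pou5f1, Dnmt3b and Myt1l decreased and Hes1 and Zfp521 increased with no overlap between days 2 and 3 and days 5 and 7, whereas Nes overlapped and T was low in replicate 2 of days 5 and 7.

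Genes of other lineages were also measured. Of 12 genes of the 2-cell-like state, a rare totipotent-like state of mESC cultures, 6 passed the filter on low counts and these 6 fell (median -3.50; without day 2 and with the replicate number as a block 2 passed the filter and both fell), among them Zfp352 (log2 fold change -4.16, SE 0.46, edgeR adjusted p = 4.33e-05), Usp17lc (log2 fold change -3.87, SE 0.56, edgeR adjusted p = 0.00024) and Zscan4f (log2 fold change -3.79, SE 0.54, edgeR adjusted p = 0.000236). The summed level of all 12 went from 2.56 to 8.45 RPM at days 2 and 3 to 0.151 to 0.749 RPM at days 5 and 7. Over all genes tested 24.1% fell, but members this low at days 5 and 7 could pass the filter mainly through the earlier libraries. A fall of those tested was thus largely set by the filter. Of 12 tested surface ectoderm and neural crest genes, 8 rose (66.7%) and none fell (median 1.25), against 23.8% and 24.1% over all genes tested. Without replicate 1 of day 5 or 7, 1 fell. Krt8, a keratin of simple epithelia, stood at 4.48 and 8.18 RPM at day 2, 14, 28.9 and 19.7 at day 3, 84.2, 66 and 105 at day 5 and 74.2, 119 and 93 at day 7 (log2 fold change 3.09, SE 0.25, edgeR adjusted p = 7.51e-06). Its partner keratin Krt18 (log2 fold change 2.64, SE 0.30, edgeR adjusted p = 5.53e-05) and the ectodermal homeobox gene Dlx3 (log2 fold change 2.50, SE 0.66, edgeR adjusted p = 0.00926) rose with it, while E-cadherin (Cdh1) did not pass (log2 fold change -0.23, SE 0.09, edgeR adjusted p = 0.0627).

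Of 9 tested mesoderm genes, 2 rose (22.2%) and 1 fell (11.1%; median 0.80), against 23.8% and 24.1% over all genes tested. T (brachyury), the T-box regulator of the primitive streak, stood at 0.378 and 0.426 RPM at day 2, 3.38, 0.418 and 1.82 at day 3, 50.2, 1.04 and 19 at day 5 and 91.1, 4.42 and 83.9 at day 7. Replicates 1 and 3 of days 5 and 7 were high, replicate 2 lay within the earlier range at day 5 and just above it at day 7, and the stages overlapped (log2 fold change 5.54, SE 1.12, edgeR adjusted p = 0.00202). Kdr, the VEGF receptor of mesodermal progenitors, rose and Tal1, a blood regulator, fell. The Kdr call was lost without day 2 replicate 1 (edgeR adjusted p = 0.0508) and that of Tal1 without day 2 replicate 2 (adjusted p = 0.0644). Without day 7 replicate 2, 4 mesoderm genes rose instead of 2. Pdgfra, the PDGF receptor of mesenchyme and with the most fragments in the list, did not pass (log2 fold change 1.48, SE 0.58, edgeR adjusted p = 0.0529).

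Against shares of 23.8% that rose and 24.1% that fell over all genes tested, 5 of 14 tested endoderm genes rose (35.7%) and none fell (median 1.09). These were Cer1, a secreted antagonist of Nodal and BMP (log2 fold change 5.15, SE 1.27, edgeR adjusted p = 0.00711), the forkhead factors Foxa1 (log2 fold change 3.20, SE 1.01, edgeR adjusted p = 0.0212) and Foxa2 (log2 fold change 2.39, SE 0.57, edgeR adjusted p = 0.00545), Sox17 (log2 fold change 1.86) and Dab2 (1.05). Foxa1 did not exceed 1.59 RPM and Cer1 2.94 RPM in any library. Leaving out 1 library gave 2 to 8 endoderm rises: 2 without day 2 replicate 1 or day 7 replicate 3, 3 without day 3 replicate 1 or 2 or day 5 replicate 3, and 8 without day 5 replicate 1. With the replicate number as a block 9 rose. The summed level of the endoderm genes was 592 to 2305 RPM at days 2 and 3 and 370.3 to 3960.1 RPM at days 5 and 7, with Lama1, a basement membrane laminin with the most fragments, not past the threshold (log2 fold change 0.70, SE 0.61, edgeR adjusted p = 0.363).

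Most markers of the feeder fibroblasts from which the cells had been separated rose. Of 14 tested members 9 rose (64.3%) and 3 fell (21.4%; median 1.72), against 23.8% and 24.1% over all genes tested. The summed level of the list was 147 to 300.01 RPM at days 2 and 3 and 463 to 734 RPM at days 5 and 7. Postn, a matricellular protein, was at 0.0944 and 0.0327 RPM at day 2, 0, 0.0465 and 0.0395 at day 3, 0.044, 1.94 and 0.532 at day 5 and 3.28, 13.1 and 16.7 at day 7 (log2 fold change 6.14, SE 0.95, edgeR adjusted p = 0.000373). It did not exceed 0.0944 RPM in any earlier library, and day 5 replicate 1 lay in the earlier range. The collagen chain Col1a1 rose from 0.601 to 1.89 RPM at days 2 and 3 to a range of 7.67 to 26.5 RPM at days 5 and 7 (log2 fold change 3.63, SE 0.40, edgeR adjusted p = 4.37e-05), and smooth muscle actin (Acta2) rose more (log2 fold change 5.29, SE 0.77, edgeR adjusted p = 0.000253). Thy1, Dcn and Mmp2, other markers of fibroblasts, fell (log2 fold changes -2.47, -1.05 and -0.73), Dcn not without day 2 replicate 1 or day 3 replicate 3 (adjusted p up to 0.0795). The part of fibroblasts in the rise of mesoderm, endoderm and matrix genes was not tested.

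**Figure D2:**
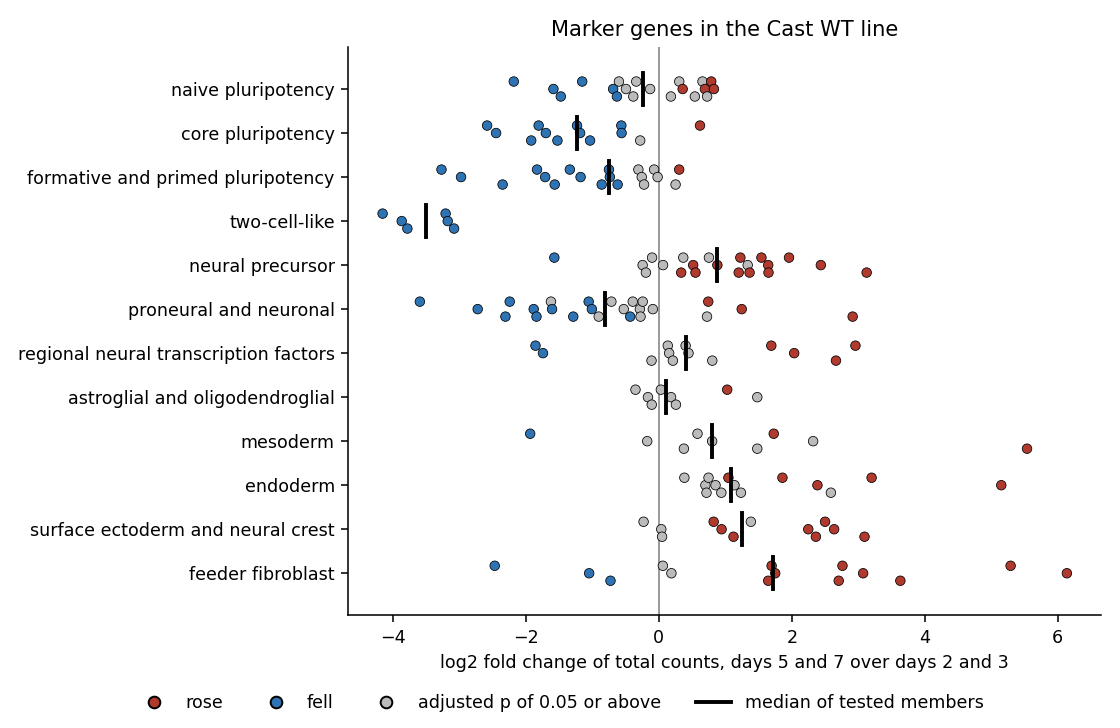
Log2 fold change of days 5 and 7 over days 2 and 3 (horizontal axis) for each tested gene of 12 marker lists (vertical axis), in red for genes that rose, blue for genes that fell and grey for genes not past the threshold, with the list median as a black bar. Core pluripotency and 2-cell-like genes lie to the left with medians of -1.23 and -3.50, and feeder fibroblast and surface ectoderm genes to the right with medians of 1.72 and 1.25. The 2-cell-like genes could pass the filter on low counts mainly through the libraries of days 2 and 3.

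Among single genes past the threshold whose stages did not overlap and whose higher stage averaged at least 5 RPM, the largest rises and falls were as follows. Pcdh7, a protocadherin (chr5:57718020-58132240), rose, with 12.7 and 11.7 RPM at day 2, 119, 54.2 and 62.1 at day 3, 1330.0, 970.5 and 627 at day 5 and 2385, 1564 and 1505 at day 7 (log2 fold change 5.55, SE 0.31, edgeR adjusted p = 1.12e-06), and its day 3 libraries already exceeded those of day 2. Acta2, Gm19689, 4932441J04Rik and the AP-1 gene Fosb came next (log2 fold changes 5.29, 4.93, 4.62 and 4.38). Aldh1a2, which makes retinoic acid, stood at 1.51 and 1.15 RPM at day 2, 0.555, 0.697 and 0.789 at day 3, 7.05, 13.7 and 8.73 at day 5 and 30.8, 4.38 and 33.9 at day 7 (log2 fold change 4.10, SE 0.52, edgeR adjusted p = 0.000103), with day 7 replicate 2 well below the other day 7 libraries. The fatty acid receptor Cd36, the metalloproteinase Pappa, the Wnt antagonist Frzb, Scel, B230323A14Rik and the RNA-binding protein Rbms3 completed the 12 (log2 fold changes 3.85 to 4.31). Cd36 ranged among the later libraries from 0.532 to 31.3 RPM.

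The largest fall was that of Gria1, a subunit of the AMPA glutamate receptor (chr11:57011617-57330244), with 12 and 5.89 RPM at day 2, 4.44, 1.39 and 3.95 at day 3, 0.308, 0.0901 and 0.684 at day 5 and 0.0482, 0.113 and 0.129 at day 7 (log2 fold change -4.64, SE 0.49, edgeR adjusted p = 3.24e-05). The neuronal cadherin Cdh9 (log2 fold change -3.85, SE 0.34, edgeR adjusted p = 1.13e-05), the calcium-binding protein Caln1 (log2 fold change -3.66, SE 0.49, edgeR adjusted p = 0.00015), the secreted neural protein Nell2 (log2 fold change -3.48, SE 0.35, edgeR adjusted p = 2.56e-05) and the synaptic vesicle protein Doc2a (log2 fold change -3.37, SE 0.30, edgeR adjusted p = 1.16e-05) followed with Myt1l. Far2, Tmem255b, Tmprss11d, Slc5a11, Sphkap and Slfn9 made up the rest, with log2 fold changes of -3.71 to -3.35. Gria1, Cdh9, Caln1, Myt1l, Nell2 and Doc2a are known for their expression in neurons, and their higher stage was days 2 and 3.

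Signalling genes were examined by pathway. Of 23 Wnt pathway genes 10 rose (43.5%) and 4 fell (17.4%; median 0.63), against 23.8% and 24.1% over all genes tested. Only 2 fell without day 7 replicate 3. Sp5, a zinc-finger gene switched on directly by beta-catenin with TCF/LEF factors in many tissues, stood at 0 and 0 RPM at day 2, 0.324, 0 and 0.197 at day 3, 0.925, 0.27 and 2.81 at day 5 and 0.916, 0.679 and 2.54 at day 7. It was detected in 2 of 5 earlier and 6 of 6 later libraries (log2 fold change 5.59, SE 1.12, edgeR adjusted p = 0.00228), and at these levels the fold change depends on the prior count of the fit. The ligands Wnt7a (log2 fold change 3.27, SE 0.24, edgeR adjusted p = 4.19e-06) and Wnt7b, the receptor ubiquitin ligase Rnf43 (log2 fold change 2.84, SE 0.19, edgeR adjusted p = 2.83e-06) and the feedback gene Axin2 (log2 fold change 1.25) rose, while Lef1, which encodes a nuclear mediator of the pathway, fell (-1.57). Tcf7l1, the TCF factor that represses targets in stem cells, did not pass (log2 fold change -0.25, SE 0.23, edgeR adjusted p = 0.386).

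The promoters of Sp5 and T are shown because both genes are textbook targets of TCF/LEF factors and led their lists here. Capitals mark the TCF/LEF core (CTTTGA or CTTTGT, both strands) in windows of 250 bases before to 50 after the start (RefSeq, GRCm38.p6). The Sp5 window, chr2:70474673-70474972 on the plus strand, holds 5 matches, which begin at 221, 212, 204 and 104 bases before and 41 bases after the start. The T window, chr17:8434173-8434472 on the plus strand, holds 1, at 234 bases before the start. Of 27025 windows 31.3% hold at least 1 match, and those of Axin2 and Rnf43 hold none.
Sp5: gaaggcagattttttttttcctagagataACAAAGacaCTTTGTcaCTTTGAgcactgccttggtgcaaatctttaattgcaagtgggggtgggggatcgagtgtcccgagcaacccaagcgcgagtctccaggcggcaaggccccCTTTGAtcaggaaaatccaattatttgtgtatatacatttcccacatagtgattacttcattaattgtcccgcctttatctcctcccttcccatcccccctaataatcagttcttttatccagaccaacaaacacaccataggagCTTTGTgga
T: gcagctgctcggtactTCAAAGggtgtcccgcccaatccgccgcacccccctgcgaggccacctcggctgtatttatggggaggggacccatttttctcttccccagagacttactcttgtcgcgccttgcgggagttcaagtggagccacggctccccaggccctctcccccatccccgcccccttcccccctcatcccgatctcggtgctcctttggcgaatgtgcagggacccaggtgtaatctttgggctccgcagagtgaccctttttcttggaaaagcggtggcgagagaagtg

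Of 14 BMP-SMAD genes 8 rose (57.1%) and none fell (median 1.19), against 23.8% and 24.1% over all genes tested. Without day 2 replicate 1, 5 rose. The BMP antagonist Noggin (Nog) was at 0.0472 and 0.0982 RPM at day 2, 0.139, 0.232 and 0.355 at day 3, 0.793, 1.49 and 1.41 at day 5 and 1.88, 2.04 and 2.7 at day 7 (log2 fold change 3.66, SE 0.36, edgeR adjusted p = 2.13e-05), with no overlap. The ligand Bmp4 (log2 fold change 1.45, SE 0.25, edgeR adjusted p = 0.000734), the inhibitors of bHLH factors Id1 (log2 fold change 2.24, SE 0.51, edgeR adjusted p = 0.00384) and Id3 (log2 fold change 1.76) and the homeobox gene Msx2 (log2 fold change 2.07, SE 0.65, edgeR adjusted p = 0.0211) rose too, Msx2 not without day 2 replicate 1 or day 5 replicate 3 (adjusted p up to 0.0794). Bmper, with the most fragments in the list, did not pass (log2 fold change 0.55, SE 0.67, edgeR adjusted p = 0.521). Of 18 retinoic acid genes 7 rose (38.9%) and 2 fell (11.1%; median 0.56), against 23.8% and 24.1% over all genes tested. Only 1 fell without replicate 1 or 3 of day 3, replicate 1 of day 5 or replicate 1 or 2 of day 7. The rises included Aldh1a2 and the catabolic enzyme Cyp26a1 (log2 fold change 2.64, SE 0.44, edgeR adjusted p = 0.000569). The receptor gene Rxra did not pass (log2 fold change 0.30, SE 0.13, edgeR adjusted p = 0.0689).

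The 17 tested Notch genes held 8 rises (47.1%) and 5 falls (29.4%; median 0.30), against 23.8% and 24.1% over all genes tested. Besides Hes1, the target Hey1 and the feedback gene Nrarp rose, whereas the non-canonical ligand Dlk1 (log2 fold change -1.63, SE 0.38, edgeR adjusted p = 0.00486), the glycosyltransferase Mfng (log2 fold change -1.54, SE 0.25, edgeR adjusted p = 0.000465) and the DNA-binding partner Rbpj (log2 fold change -1.10) fell and the ligand Jag1 did not pass (log2 fold change -0.33, SE 0.21, edgeR adjusted p = 0.214). Of 12 hedgehog genes 5 rose (41.7%) and 3 fell (25%; median 0.37), against the same 23.8% and 24.1%. The co-receptors Cdon (log2 fold change 1.17, SE 0.12, edgeR adjusted p = 3.24e-05) and Gas1 (log2 fold change 1.26, SE 0.38, edgeR adjusted p = 0.0179) rose, Gas1 not without replicate 1 or 2 of day 2 (adjusted p up to 0.058), and the effector Gli2 did not pass (log2 fold change 0.11, SE 0.15, edgeR adjusted p = 0.589). Among FGF-ERK targets, the immediate early gene Fos rose from 1.23 to 2.93 RPM at days 2 and 3 to a range of 3.38 to 57.2 RPM at days 5 and 7 (log2 fold change 3.41, SE 0.40, edgeR adjusted p = 7.19e-05), with Ier3 and Phlda1, while the feedback inhibitor Spry4 (log2 fold change -1.88, SE 0.36, edgeR adjusted p = 0.00153) and the ETS factors Etv5 (log2 fold change -1.71) and Etv4 (log2 fold change -1.83, SE 0.59, edgeR adjusted p = 0.0237) fell. In all 5 of 17 rose (29.4%) and 4 fell (23.5%; median -0.16), shares near the 23.8% and 24.1% over all genes tested. There were 7 falls without day 5 replicate 3, with library totals or with the replicate number as a block, and Etv4 was lost without replicate 1 or 2 of day 2 or replicate 3 of day 3 (adjusted p up to 0.0578). Spred2, another inhibitor, did not pass (log2 fold change -0.21, SE 0.16, edgeR adjusted p = 0.287).

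Of 10 tested DNA methylation genes 6 fell (60%) and none rose (median -0.58), against 24.1% and 23.8% over all genes tested. Without day 3 replicate 2 or day 5 replicate 1, 1 rose. Those that fell were Dnmt3b, its cofactor Dnmt3l (log2 fold change -2.17, SE 0.24, edgeR adjusted p = 5.02e-05), the dioxygenase Tet1 (log2 fold change -1.32, SE 0.14, edgeR adjusted p = 3.24e-05), Dnmt3a, Uhrf1 and the maintenance enzyme Dnmt1 (log2 fold change -0.43). Zdbf2 did not pass (log2 fold change -0.10, SE 0.11, edgeR adjusted p = 0.498). The 4 stress and metabolic lists had medians between -0.43 and 0.17. Of 15 p53 targets 1 rose (6.67%) and 7 fell (46.7%), against 23.8% and 24.1% over all genes tested. Perp rose (log2 fold change 1.86, SE 0.20, edgeR adjusted p = 4.18e-05), Ddit4l (-1.07) and Gtse1 (-1.05) led the falls, and Trp53inp1 did not pass. Of 17 hypoxia genes 5 rose and 5 fell (29.4% each, near the shares over all genes tested), or 3 fell without replicate 1 or 2 of day 2, replicate 3 of day 3 or replicate 1 of day 5. The glucose transporter Slc2a3 rose from 54 to 175 RPM at days 2 and 3 to a range of 436 to 871 RPM at days 5 and 7 (log2 fold change 2.60, SE 0.33, edgeR adjusted p = 0.000102), with Adm and Vegfa, while Slc2a1 did not pass (log2 fold change -0.06, SE 0.21, edgeR adjusted p = 0.83). Of 15 genes of the integrated stress response none rose and 5 fell (33.3%, against 24.1% over all genes tested), led by the serine synthesis enzyme Psat1 (log2 fold change -0.78, SE 0.19, edgeR adjusted p = 0.00538). The falls numbered 2 without day 2 replicate 2, 3 without day 3 replicate 1 or day 7 replicate 1 and 8 without day 5 replicate 1. Shmt2 and Slc3a2 were other members that fell, Shmt2 not with the replicate block without day 2 or without 3 of the libraries in turn (adjusted p up to 0.148), and Asns did not pass. Of 20 cholesterol synthesis genes 4 rose (20%, against 23.8% over all genes tested), with Hmgcs1 first (log2 fold change 0.78, SE 0.14, edgeR adjusted p = 0.00113) and then Fdft1 and Dhcr7. The rises numbered 1 with library totals and 2 without replicate 1 of day 2, 3 or 7 or replicate 3 of day 7. None fell, or 1 without replicate 2 of day 3 or replicate 3 of day 5 or 7. Cyp51 did not pass.

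The steps of the time course were tested in the same fit. Between days 2 and 3, 14 genes rose (0.091%) and none fell (0%), 1232 genes (8.01%) having an unadjusted p below 0.05. Pcdh7 rose (log2 fold change 2.75), and among genes picked after their values were seen the actin-associated genes Tagln and Cald1 rose (log2 fold changes 3.20 and 1.19). The count fell to 0, 1 or 2 without either day 2 library, replicate 2 or 3 of day 3, replicate 1 or 2 of day 5 or replicate 2 of day 7. DESeq2 called 145 rises and 55 falls. Between days 3 and 5, 1091 genes rose (7.09%) and 818 fell (5.32%), with 4488 (29.2%) at an unadjusted p below 0.05. Among them were Dnmt3b (log2 fold change -1.78), Pou5f1 (-0.79), Hes1 (1.75) and Wnt7a (3.70). The total was 767 without day 3 replicate 1, 874 without day 3 replicate 3, 1104 without day 5 replicate 1 and 1083 without day 5 replicate 2. Between days 5 and 7, 20 rose (0.13%) and 50 fell (0.325%), with 2109 (13.7%) at an unadjusted p below 0.05. Pax3 rose (log2 fold change 3.08) and Dppa4 (-1.21), the opioid receptor Oprm1 (-3.05) and the kinase Pak3 (-1.21) fell. This total was 7 to 103 with 1 library left out, 7 without day 7 replicate 1 and 20 to 37 without either day 2 library, any day 3 library or replicate 1 or 3 of day 5.

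Same-numbered replicates of days 3, 5 and 7 deviated together, so the steps were also fitted with the replicate number as a block. For the steps among these days, 1893 genes then rose and 1665 fell between days 3 and 5, and 213 rose and 336 fell between days 5 and 7. That fit held all 11 libraries and so used the day 2 numbers too. Without the day 2 libraries, whose pairing by number is less certain, the block gave 3801 and 587 genes for these 2 steps.

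Xist itself was induced at every day and increased through the time course. Xist (chrX:103460372-103483233) was at 6574 and 6423 RPM at day 2, 10756, 8572 and 14420.2 at day 3, 15676, 20839.8 and 25157 at day 5 and 26443, 30441 and 35184 at day 7, and its lowest later library lay above its highest earlier library. The stage means were 9349 ± 3338 RPM at days 2 and 3 (SD, n = 5) and 25623 ± 6889.8 RPM at days 5 and 7 (SD, n = 6), a 2.78-fold rise of the geometric means (exact two-sided permutation test, p = 0.00216, the smallest that 462 arrangements allow). The Cast allele gave 0.952 to 0.971 of allelic Xist fragments in the 11 libraries, and Xist took 13.7% to 48.8% of all fragments counted on the X. The uninduced libraries were not free of Xist, with 322 and 154 RPM in D5 and 1009 RPM in G6. Their mean Cast share of Xist was 0.824 (82.9%, 74.3% and 90.1%). Smchd1, which encodes a chromosomal protein of the inactive X and is intact in this line, was at 543 and 522 RPM at day 2, 616, 709 and 610 at day 3 and 595 to 640.1 RPM at days 5 and 7. The stages did not differ past the threshold (exact two-sided permutation test, p = 0.535, and p = 0.62 within replicate number), but both day 2 libraries lay below all libraries of the other days. Of 26 tested genes of the X inactivation centre and Xist partners 7 rose (26.9%) and 5 fell (19.2%; median 0.07), near the 23.8% and 24.1% over all genes tested, or 3 fell without replicate 1 of day 2 or replicate 1 or 2 of day 3. The Polycomb subunits Pcgf5 (log2 fold change 1.28, SE 0.15, edgeR adjusted p = 6.25e-05) and Yaf2 (log2 fold change 0.93, SE 0.13, edgeR adjusted p = 0.000189) rose, as did the non-coding activator Jpx (log2 fold change 0.55), while the neighbouring Ftx (-0.57) and the scaffold protein gene Hnrnpu (-0.43) fell. Ncor1, of the corepressor complex, did not pass (log2 fold change -0.02, SE 0.09, edgeR adjusted p = 0.887).

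Loss of Cast-X expression was measured as the ratio of Cast fragments to all allelic fragments of a gene, which is Xi/(Xi+Xa) in this line, over the X-linked genes that the deposited ratio table lists, which are Xist and 398 others. The median over the 398 genes was 0.142 and 0.167 at day 2, 0.0747, 0.0958 and 0.0742 at day 3, 0.0193, 0.0270 and 0.0385 at day 5 and 0.0117, 0.0152 and 0.0242 at day 7. No library of days 5 and 7 reached the lowest of days 2 and 3, and the uninduced libraries lay at 0.414 to 0.447. The lowest of these was G6, which also had the most Xist among them. With Xist included, the mean of the medians was 0.111 at days 2 and 3 and 0.0227 at days 5 and 7 (exact two-sided permutation test, p = 0.00216, and p = 0.00926 within replicate number). The allelic fragments summed over all these genes gave the opposite direction, 0.318 and 0.448 (exact permutation test, p = 0.00649), since Xist enters that sum with most of its fragments on the Cast allele. Without Xist the summed ratio went from 0.147 to 0.0458. In both days 5 and 7, replicate 3 had the highest Xist level and also the highest median ratio of its day.

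Most genes fell. Of the 398 genes, 363 fell (91% of the genes tested, Xist included, by limma at an adjusted p below 0.05), 2 rose (0.752% with Xist counted as well) and 33 did not pass. The stages did not overlap for 257 genes (64.6%), all of them lower at days 5 and 7. A gene kept 23.7% of its earlier ratio in the median (quartiles 15.2% and 32.6%). Genes with a mean ratio above 0.1 numbered 213 at days 2 and 3 and 26 at days 5 and 7, and those above 0.2 numbered 78 and 9. Of the 33 genes not past the threshold, 17 were already below 0.05 at days 2 and 3, 8 were above 0.1 at days 5 and 7 and 8 were neither, and 20 of the 33 had a median depth below 50 allelic fragments. In a gene of median depth (212 to 392 allelic fragments per library), a count of 0 allows a ratio of up to 0.00765 to 0.0142, counting error only. Of the 398 genes, 7 had no Cast fragment in any of the 6 later libraries.

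By step, 303 of the 398 genes fell between days 2 and 3 (75.9%) and 1 rose, 240 fell between days 3 and 5 (60.2%) and none rose, and 0 passed between days 5 and 7, where 12 genes had an unadjusted p below 0.05 and 319 of 398 estimates were lower. On the logit scale 0 genes passed between days 2 and 3, with 132 at an unadjusted p below 0.05, and edgeR on allelic counts gave 172. Between days 5 and 7 these gave 2 and 3. The count between days 3 and 5 was 133 without day 5 replicate 1.

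The remaining Cast share differed along the chromosome at both stages. In windows of 20 Mb, the median ratio at days 2 and 3 was 0.1998 over 46 genes below 20 Mb, 0.191 over 30 genes from 20 to 40 Mb and 0.124 over 34 genes past 160 Mb. These were also the 3 highest windows at days 5 and 7, with medians of 0.0405, 0.048 and 0.0325. The lowest at days 2 and 3 was the window from 80 to 100 Mb, just proximal of Xist (0.0641, then 0.0133), and the window from 40 to 60 Mb was next (0.0727, then 0.012). The share of the earlier ratio that genes kept was more alike, 20.6% to 28.4% over the 9 windows. Genes of a window share libraries, and no test was made between windows.

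**Figure D3:**
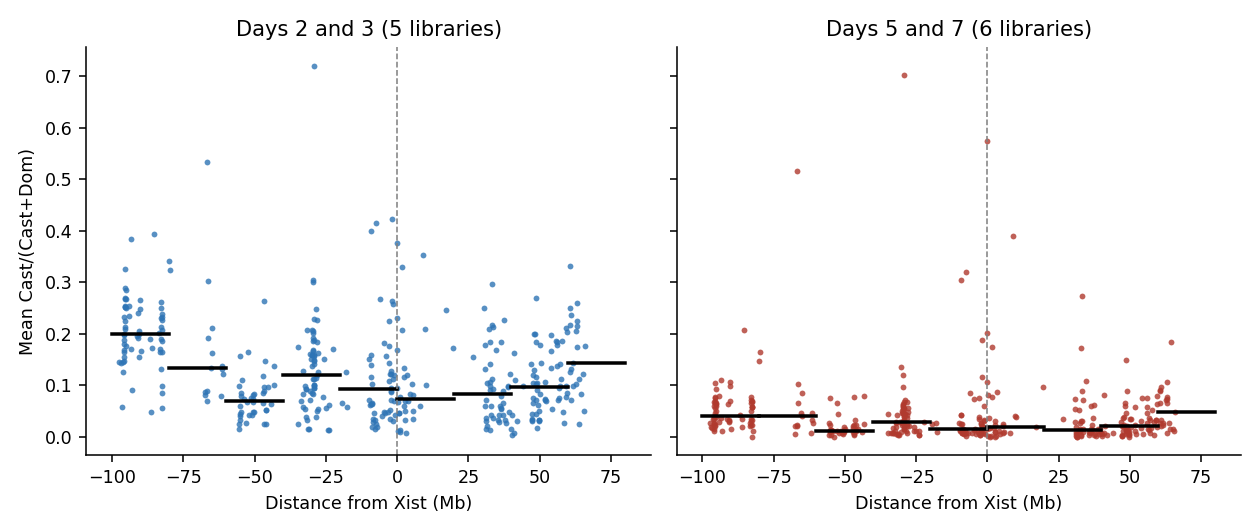
Mean ratio Cast/(Cast+Dom) of each of 398 genes (vertical axis) against its distance from Xist in Mb (horizontal axis), for days 2 and 3 (left) and days 5 and 7 (right), with black bars for the medians of 20 Mb windows that hold at least 5 genes. The window from 80 to 100 Mb on the proximal side had the highest median at days 2 and 3, 0.19996, and all window medians lay at or below 0.0487 at days 5 and 7.

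The genes of largest fall kept a considerable Cast share at day 2 and lost most of it by day 7. Rpgr, a ciliary protein (chrX:10158215-10216795), stood at 0.447 and 0.453 at day 2, 0.328, 0.379 and 0.312 at day 3, 0.11, 0.15 and 0.204 at day 5 and 0.0519, 0.0674 and 0.0811 at day 7 (difference -0.284, SE 0.0214, limma adjusted p = 2.49e-06), on 808 to 1542 allelic fragments per library. Its uninduced mean was 0.544. Taf1, a subunit of the general transcription factor TFIID, went from 0.422 to 0.189 in the stage means, Rbm3, a cold-inducible RNA-binding protein, from 0.268 to 0.0492, Siah1b from 0.332 to 0.091 and Ssr4 from 0.305 to 0.0971. Pqbp1, Ebp, Slc35a2 and Lancl3, all in the first 20 Mb, fell from 0.234 to 0.326 at days 2 and 3 to 0.0294 to 0.066 at days 5 and 7. Pcdh11x fell from 0.246 to 0.0196, but had only 10 to 13 allelic fragments in the day 2 libraries, where its ratio was highest. Among the genes of lowest ratio at days 2 and 3 were Capn6, Trpc5os, Fndc3c1 and Uprt, with means of 0.00274 to 0.00937 against 0.205 to 0.413 in the uninduced libraries. Fndc3c1 fell further, to 0.00129, and the other 3 did not pass. Fndc3c1 RNA as a whole rose meanwhile, from 17.1 to 55.9 RPM at days 2 and 3 to a range of 80.7 to 194 RPM at days 5 and 7 (log2 fold change 2.00, SE 0.23, edgeR adjusted p = 5.83e-05).

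A few genes stayed high on the Cast allele. Kdm6a, a histone H3K27 demethylase known to escape X inactivation (chrX:18162666-18279358), stood at 0.414 and 0.429 at day 2, 0.37, 0.394 and 0.362 at day 3, 0.203, 0.301 and 0.253 at day 5 and 0.145, 0.178 and 0.162 at day 7. It fell with no overlap between the stages (difference -0.192, SE 0.0212, limma adjusted p = 1.16e-05) on 7868 to 11819 allelic fragments. Eif2s3x, a translation initiation factor subunit and escape gene, had a mean of 0.39998 ± 0.054 at days 2 and 3 (SD, n = 5) and 0.304 ± 0.0389 at days 5 and 7 (SD, n = 6) and fell, though the stages overlapped (difference -0.103, SE 0.0268, limma adjusted p = 0.00381). Slc25a5, the mitochondrial ADP/ATP carrier (chrX:36795651-36798806), did not pass, with 0.538 and 0.493 at day 2, 0.529, 0.562 and 0.545 at day 3, 0.486, 0.498 and 0.48 at day 5 and 0.504, 0.577 and 0.55 at day 7 (difference -0.0148, SE 0.0182, limma adjusted p = 0.449) against 0.597 uninduced. Morf4l2 (difference -0.0251, SE 0.0228, limma adjusted p = 0.309) and Apool (difference 0.0436, SE 0.0472, limma adjusted p = 0.391) did not pass either, and Las1l, a ribosome biogenesis factor, fell from 0.415 to 0.32 (adjusted p = 0.0048). 4930519F16Rik went from 0.377 to 0.202 on 23 to 145 allelic fragments.

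Atp6ap1, an accessory subunit of the vacuolar proton pump (chrX:74297096-74304721), had the highest ratio after Xist, 0.746 and 0.778 at day 2, 0.64, 0.74 and 0.695 at day 3, 0.658, 0.738 and 0.715 at day 5 and 0.579, 0.772 and 0.744 at day 7, with no change past the threshold (difference -0.0255, SE 0.0343, limma adjusted p = 0.488). In iXist-ChrX-Dom, where Xist lies on the Dom X, the Dom share of Atp6ap1 was 0.0609 at days 2 and 3 and 0.00543 at days 5 and 7. The Cast X is the active X of that line, so a Cast majority there also arises by silencing of the Dom X. That majority therefore cannot show a Cast bias apart from Xist, which was not tested. In the uninduced libraries the mean Cast ratio of Atp6ap1 was 0.79, against a median of 0.436 over the 398 genes. For Slc25a5, in contrast, the Xi share was near that of the Xa in both lines, with 0.457 and 0.447 on the Dom Xi.

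**Figure D4:**
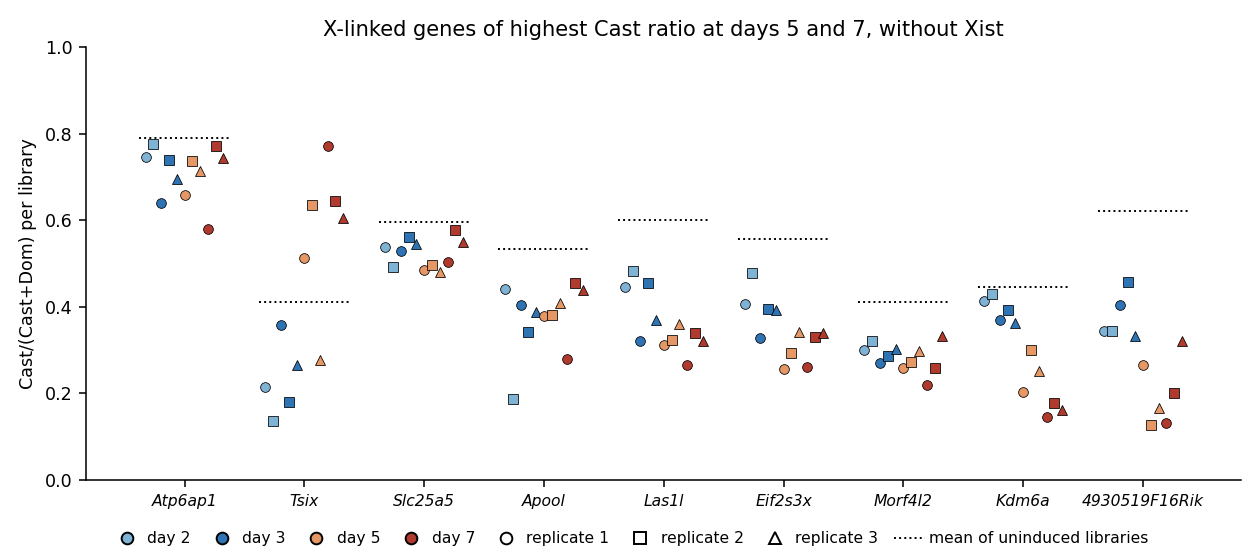
Ratio Cast/(Cast+Dom) in each library (points, coloured by day and shaped by replicate) of the 9 genes other than Xist with the highest mean ratio at days 5 and 7, with the mean of the uninduced libraries as a dotted mark. Atp6ap1 and Slc25a5 did not pass the threshold, Kdm6a fell to 0.145 to 0.178 at day 7, and Tsix rose.

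Of the known escape genes, 18 were in the ratio table. Besides Xist, Kdm6a and Eif2s3x, the histone demethylase Kdm5c fell from 0.27 to 0.149, the helicase Ddx3x from 0.265 to 0.0983, 5530601H04Rik from 0.33 to 0.173, Pbdc1 from 0.207 to 0.0771, Utp14a from 0.156 to 0.0751, the deubiquitinase Usp9x from 0.247 to 0.0692, Uba1 from 0.23 to 0.0648 and 1810030O07Rik from 0.192 to 0.0315. Shroom4, Car5b and Firre fell to means of 0.0108 to 0.0273. Jpx (limma adjusted p = 0.167) and Ftx (adjusted p = 0.647), the non-coding neighbours of Xist, did not pass and varied between replicates, Ftx from 0.0184 to 0.148 at days 5 and 7. In total counts, 21 tested members of this list held 6 rises and 6 falls (28.6% each, near the shares over all genes tested; median -0.03), with Utp14a the largest fall (log2 fold change -1.11, SE 0.12, edgeR adjusted p = 3.62e-05), Mid1 the largest rise after Xist (log2 fold change 1.08, SE 0.18, edgeR adjusted p = 0.000592) and Usp9x not past (log2 fold change -0.04, SE 0.15, edgeR adjusted p = 0.841). The 38 tested genes of X-linked neurodevelopmental disorders held 10 rises (26.3%) and 8 falls (21.1%; median 0.18), near the 23.8% and 24.1% over all genes tested. The synaptic vesicle gene Syp (log2 fold change -1.77, SE 0.30, edgeR adjusted p = 0.000612) and the kinase Pak3 (log2 fold change -1.56, SE 0.16, edgeR adjusted p = 3.21e-05) fell, Iqsec2 rose (log2 fold change 1.59, SE 0.33, edgeR adjusted p = 0.0024) and Huwe1 did not pass (log2 fold change -0.11, SE 0.09, edgeR adjusted p = 0.351).

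The ratio of 2 genes rose. Tsix, the antisense transcript across Xist (chrX:103431516-103484957), stood at 0.215 and 0.136 at day 2, 0.359, 0.18 and 0.266 at day 3, 0.513, 0.636 and 0.277 at day 5 and 0.771, 0.645 and 0.606 at day 7 (difference 0.353, SE 0.0626, limma adjusted p = 0.000298). Cast fragments of Tsix rose (21.6 to 58.6 RPM in the stage means, log2 fold change 1.59, SE 0.539, edgeR adjusted p = 0.029) while its Dom fragments fell (69.8 to 36.6 RPM, log2 fold change -0.95, adjusted p = 0.00363). Counting was strand-specific, and Cast fragments of Tsix were 0.140% to 1.50% as many as those of Xist in the 11 libraries. Whether Xist fragments counted on the opposite strand enter the Tsix value was not tested. Frmpd4 rose from 0.0825 to 0.184 (limma adjusted p = 0.0138) although its Cast fragments fell (log2 fold change -1.15, adjusted p = 0.0391) while its Dom fragments fell more (-2.63, adjusted p = 0.000125).

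To separate the alleles, Cast and Dom counts were tested on their own with the library scaling of the total counts. Of 296 X-linked genes other than Xist tested on the Cast allele, 275 fell and 2, Tsix and Mid1, rose, against 23.9% that fell and 22.2% that rose over all genes tested on this allele. The median log2 fold change was -2.22, a 4.66-fold lower level, against -0.01 over 12472 autosomal genes. On the Dom allele 140 of 476 X-linked genes rose and 88 fell, against 21.3% and 23.3% of all genes tested. Their median was 0.17 against -0.04 over 12591 autosomal genes, and with library totals 0.05 (115 rose, 119 fell) against -0.16. The Dom X took 4.86% of all Dom fragments at days 2 and 3 and 5.17% at days 5 and 7 (exact two-sided permutation test, p = 0.0238, p = 0.0278 within replicate number and p = 0.0524 without day 2 replicate 2). The Cast X without Xist took 0.962% and 0.379% of all Cast fragments (exact two-sided permutation test, p = 0.00216, and p = 0.00926 within replicate number). Total counts of 555 X-linked genes other than Xist had a median log2 fold change of -0.03, with 133 rises and 162 falls.

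Single genes of the active Dom X changed between the stages. The protocadherin Pcdh11x rose on the Dom allele from 0.164 to 5.83 RPM at days 2 and 3 to 5.18 to 32.9 RPM at days 5 and 7 (log2 fold change 4.43, edgeR adjusted p = 0.000569). Cxx1c, Frmd7, the transcriptional coregulator Cited1 and the ephrin ligand Efnb1 were the next rises, all at most 2.22 Dom RPM in any library, and the call of Cxx1c was lost without day 5 replicate 1. The total counts of Frmd7 did not pass (log2 fold change -0.14, SE 0.38, edgeR adjusted p = 0.775). Falls on the Dom allele were led by the serotonin receptor Htr2c, Frmpd4, Taf7l, the guanine exchange factor Mcf2 and Pdzd4. Mcf2 went from 86.3 to 140 Dom RPM at days 2 and 3 to 10.4 to 31.8 at days 5 and 7 (log2 fold change -2.44, edgeR adjusted p = 1.28e-06). Genes whose total counts rose had lower Cast ratios at both stages. At days 5 and 7 the median was 0.0116 for the 104 that rose, 0.0349 for the 120 that fell and 0.0296 for the 174 not past the threshold. At days 2 and 3 the medians of these groups were already 0.065, 0.132 and 0.131. Cast-allele counts fell least in the genes that rose. Their median log2 fold change was -1.85 over 56 tested genes, against -2.76 over 106 that fell and -2.12 over 129 not past. A ratio falls when Dom RNA rises, so the ratio medians reflect both alleles, and the groups were not tested against each other.

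The change between the stages was compared with that of the reciprocal line. In iXist-ChrX-Dom, 2315 genes rose (14.5%) and 2264 fell (14.2%), and a test of the difference between the lines passed for 42 of 15954 genes (0.263%), 10 with a higher and 32 with a lower change in iXist-ChrX-Cast, with 2037 at an unadjusted p below 0.05. With the replicate number as a block 777 passed. Without replicate 1 of day 2, replicate 1 or 3 of day 3 of iXist-ChrX-Cast, or replicate 2 of day 2 or replicate 1 of day 3 of iXist-ChrX-Dom, 0 passed, and 2 to 8 passed without replicate 1 of day 2, replicate 2 of day 3 or replicate 1 of day 5 of iXist-ChrX-Dom. The number was 24 without replicate 1 of day 5 or replicate 2 of day 7 of iXist-ChrX-Cast and 64 without its replicate 3 of day 5. The core pluripotency list held 10 falls of 13 in iXist-ChrX-Dom, the neural precursor list 9 rises and 2 falls of 24, and the proneural and neuronal list 4 rises and 3 falls of 24. For the ratio, 41 of 235 genes in both ratio tables differed (17.4%), 34 falling less and 7 falling more in iXist-ChrX-Cast, but only 1 gene passed on the logit scale. Over these 235 genes the mean of the library medians went from 0.126 to 0.0253 in iXist-ChrX-Cast and from 0.1703 to 0.0328 in iXist-ChrX-Dom.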

How the data were processed

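Chromatin-associated RNA was sequenced in 11 WT iXist-ChrX-Cast libraries, with 8 WT libraries of iXist-ChrX-Dom and 3 uninduced SmcHD1 KO libraries for comparison. Per the study's methods, the authors removed ribosomal reads with Bowtie2 (2.3.2), aligned with STAR (2.4.2a) to an mm10 genome masked at the strain polymorphisms, split reads by allele with SNPsplit and made the deposited counts per gene with featureCounts (1.5.2), strand-specifically and without assigning a fragment to more than 1 gene. The deposited ratio tables of the authors hold allelic ratios as fractions; only their gene lists were used here, ratios being recomputed from the allelic counts. In the table of iXist-ChrX-Dom, 26 value columns could not be tied to its samples and were not used.

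Total counts were tested with edgeR (4.0.16) in R (4.3.3): TMM scaling, filterByExpr by day, a day factor of 4 levels and the mean of days 5 and 7 minus that of days 2 and 3, Benjamini-Hochberg threshold 0.05. Ratios were tested with limma (3.58.1) in the same design. Xist, Smchd1, the median ratio and the X shares were tested with exact permutation tests over the libraries, also within replicate number. Allelic counts were tested as the total counts, and the line difference as an interaction over both lines. Alternatives were library totals, no filter, DESeq2 (1.42.0), a fit of 2 stages, replicate and naming-series blocks, logit ratios, edgeR on allelic counts and leaving out each library. A fold change whose earlier libraries are at or near 0 depends on the prior count of the fit. Replicates are separate libraries of 1 clone, and p-values measure only the spread between these samples. In simulated counts of 15163 genes for the stage comparison, 79 of 100 genes changed 2-fold and 96 of 100 changed 4-fold were recovered, with 13 unchanged genes called. In the simulated ratio comparison, 153 of 200 genes changed 4-fold were recovered and 5 unchanged genes called.

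Same-numbered replicates of days 3, 5 and 7 deviated from their day means together (9 correlations, 0.167 to 0.66), so the number served as a block in alternative fits. The main fits used no pairing. The titles do not say whether equal numbers mark shared differentiations. The 6 pairs with day 2 gave 0.0503 to 0.494, so a pairing of day 2 by number is less certain. The replicate block over all 11 libraries and the permutations within replicate number used the day 2 numbers as well. Only the replicate block without day 2 left them out.

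Named genes were the 12 largest changes in each direction past the threshold with no overlap between stages and at least 5 RPM in the higher stage; the 3 largest changes and the member of highest level not past the threshold of each of 26 lists; for ratios the 10 highest at days 5 and 7, the 5 lowest at days 2 and 3, the 10 largest falls and the known escape genes; on the Dom allele the 5 largest changes each way; and between lines the 10 largest differences in totals and in ratios. Some genes that these rules select are not reported here. Other genes named in the text were picked after their values were seen. The members and lists were chosen with earlier results of these data known, so no list is independent support. Promoters came from RefSeq (GRCm38.p6) by symbol.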

Additional observations from a re-analysis of the deposited data

Results flagged for a closer look

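The changes of 20 genes differed between the lines iXist-ChrX-Cast and iXist-ChrX-Dom by a test of the difference itself, an interaction term over the libraries of both lines. For total counts the difference is the log2 fold change of days 5 and 7 over days 2 and 3 in iXist-ChrX-Cast minus that in iXist-ChrX-Dom, tested with edgeR. It was -2.97 for the neuronal factor Myt1l (log2 fold change -3.59 in iXist-ChrX-Cast and -0.62 in iXist-ChrX-Dom, adjusted p = 0.0227), -2.77 for the neuronal polarity kinase Brsk2 (adjusted p = 0.0392) and -2.66 for Fam155a (-1.01 and 1.65, adjusted p = 0.0313). It was -2.63 for the opioid receptor Oprm1, -2.59 for the non-coding RNA Miat, -2.23 for Pcsk2os1, -2.17 for the GABA receptor subunit Gabrg3 and -2.14 for the axon guidance protein Spon1. The change was higher in iXist-ChrX-Cast for the BMP ligand Bmp4, by 2.17 (1.46 and -0.71, adjusted p = 0.0284), and for the KIT ligand Kitl, by 2.16 (2.06 and -0.09). Each of these 10 differences lost its call when some single libraries were left out, from 5 of the libraries in turn for Myt1l to 15 for Gabrg3.

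For the ratio of the inactive X the difference is in ratio units, tested with limma. The fall was smaller in iXist-ChrX-Cast for Efhc2 by 0.433, whose mean ratio went from 0.049 to 0.0198 in iXist-ChrX-Cast and from 0.581 to 0.119 in iXist-ChrX-Dom, with 0.132 as the Cast share in the uninduced libraries. It was also smaller for Mamld1 by 0.276, the clotting factor gene F8 by 0.224, the protease inhibitor Timp1 by 0.194, Zdhhc9 by 0.189, Bcorl1 by 0.181, Rbmx2 by 0.17 and Gab3 by 0.149. In iXist-ChrX-Cast the mean ratios of these genes were already low at days 2 and 3, from 0.0388 (Gab3) to 0.0843 (Rbmx2). They could not fall there by as much as in iXist-ChrX-Dom, where Zdhhc9 changed by -0.226 and Timp1 by -0.263. The fall was larger in iXist-ChrX-Cast for Lancl3 (-0.181) and the sterol isomerase Ebp (-0.163). The 10 ratio differences lost their calls on the logit scale, where only 1 gene of the whole table passed.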

How the results depend on the processing

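The counts of genes past the threshold moved for the single steps and between the lines. For day 3 against day 2 no filter gave 22, the replicate block 81, a block by the naming series of the deposited libraries 7, DESeq2 200 and leaving out 1 library 0 to 17. For day 5 against day 3 these blocks gave 3558 and 2901, a replicate block without day 2 (chosen after seeing the data) 3801 and leaving out 1 library 767 to 2318. For day 7 against day 5 library totals gave 132, no filter 137, the replicate block 549, the naming-series block 149, the replicate block without day 2 587, DESeq2 558 and leaving out 1 library 7 to 103. For the difference between lines library totals gave 96, no filter 75, the replicate block 777, DESeq2 301 and leaving out 1 library 0 to 64. For the ratio, the logit scale gave 0 for day 3 against day 2, 2 for day 7 against day 5 and 1 between the lines, and edgeR on allelic counts gave 172 and 3 for the 2 steps. Leaving out 1 library gave 232 to 316, 133 to 268 and 0 for the 3 ratio steps and 28 to 57 between the lines. It gave 6247 to 7625 genes for the stage comparison, 4969 to 6070 on the Cast allele, 4713 to 5940 on the Dom allele and 356 to 367 for the ratio. The replicate block left the stage comparison at 8744 genes. Summed fragments turned the difference of the median ratio to 0.131, and without 1 library that difference was -0.0977 to -0.0744. The log2 change of Xist was 1.36 to 1.65, that of Smchd1 -0.0019 to 0.109, the change of the Dom-X share 0.241 to 0.397 percentage points and that of the Cast-X share -0.65 to -0.503. Of the 33 genes whose ratio did not pass, 20 (60.6%) had a median below 50 allelic fragments per library, against 71 (17.8%) of all 398 genes. The part of depth was not tested.

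Signs of single genes turned only where they were not past the threshold, and for Rbmx2 between the lines on the logit scale (-1.01, adjusted p = 0.516); for these the cause was not tested. On the logit scale the ratio change was -0.00585 for Ftx and 0.00457 for Trpc5os. The log2 fold change with the replicate block was -0.26 for Bmper and 0.0034 for Ncor1, and with the block without day 2 it was -0.203 for Bmper, -0.0796 for Fbn1, -0.288 for Lmx1b, 0.122 for Ncor1, 0.00661 for Trp53inp1, 0.0532 for Usp9x and 0.0712 for Zdbf2. It was -0.13 for Lmx1b with the naming-series block, -0.0046 for Gli2 with library totals and 0.0038 for Ncor1 with 2 stages. With 1 library left out the ratio change ranged over -0.0203 to 0.107 for Apool, -0.0439 to 0.00436 for Atp6ap1, -0.00228 to 0.00114 for Capn6, -0.0039 to 0.0288 for Ftx, -0.0108 to 0.00641 for Trpc5os and -0.0234 to 0 for Uprt, and the log2 fold change over -0.33 to 0.998 for Bmper, -0.0207 to 0.319 for Cyp51, -0.0202 to 0.396 for Fbn1, -0.321 to 0.0594 for Gja1, -0.0753 to 0.394 for Gli2, -0.388 to 0.426 for Lmx1b, -0.358 to 0.0601 for Msi2, -0.0639 to 0.0631 for Ncor1, -0.232 to 0.0926 for Slc2a1, -0.35 to 0.000166 for Spred2, -0.485 to 0.173 for Tcf7l1, -0.118 to 0.015 for Trp53inp1, -0.116 to 0.106 for Usp9x and -0.167 to 0.0139 for Zdbf2. Among list counts of at least 3, the replicate block without day 2 moved by over 1.5 times the naive rises (4 to 7), the proneural rises (3 to 1), the cholesterol rises (4 to 9), the hypoxia falls (5 to 1), the falls of the X inactivation centre list (5 to 3) and the 2-cell-like falls, of which 2 members were then tested. Of the named genes past the threshold, 93 in total counts kept their call in 1730 of 1762 refits and 30 in the ratio in 507 of 507, while 10 line differences in totals kept theirs in 125 of 230. Over all 11 libraries the replicate block moved, besides the steps in totals and the line difference in totals, the endoderm rises (5 to 9) and the FGF-ERK falls (4 to 7) by over 1.5 times, among list counts of at least 3.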
